A study of Mus musculus with 6 samples.

Results

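The genes described here are the 48 coagulation and complement genes that were chosen by gene symbol from the 27670 gene names on a whole-genome mouse microarray. They were measured in livers of male C57BL/6J mice, an inbred laboratory strain, after 12 weeks on 1 of 2 diets. Mice were 8 weeks old when allocated at random and 20 weeks old when killed. Both groups ate the same iron-supplemented diet in which amino acids replace protein. In the choline- and folate-deficient group, called CFD here, that diet had no choline and no folic acid and held 0.17% methionine. The control group received it with 0.3% choline bitartrate, 2 mg/kg folic acid and 0.4% methionine. Each group had 3 arrays of whole-liver RNA, and a control and a CFD array of the same number shared a slide. Whether each array came from a separate mouse is not stated in the labels, so a p-value reflects only how far these samples spread, some of which may be technical. Each level below is the log2 of a probe's background-subtracted intensity relative to the 75th percentile of its array. A level of 0 is that percentile, and levels of different genes are not compared because each probe has its own brightness.

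Coagulation is a chain of serine proteases, circulating as inactive precursors, that ends in thrombin cutting fibrinogen to fibrin. Plasmin dissolves fibrin, and serpins and protein C hold the chain in check. Complement is a related plasma cascade that starts by the classical, lectin or alternative route, cleaves C3 and C5 and ends in a pore of terminal components. Hepatocytes make most of these plasma proteins. Macrophages make the C1q chains and carry the receptors for the C3a and C5a fragments, while endothelial and stromal cells make tissue factor, factor VIII and the plasminogen activators.

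The 48 genes were covered by 68 probes, of which 62 stood well above background on every array of 1 diet group or both. At least 1 such probe was found for 47 genes, each of which entered the test of all 15908 such genes on the array. C5ar1, the receptor for C5a, was left out because its probe was well above background on 0 control arrays and 1 CFD array. Probes well above background numbered 21689 to 26269 on control arrays and 23584 to 29044 on CFD arrays, and no spot was saturated. All 10 hepatocyte marker genes were well above background on all 6 arrays, and the labelled tissue is liver.

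Hepatocyte-made coagulation and complement genes were lower in CFD livers, while the macrophage-made members that could be tested were higher. Of the 47 tested members, 35 fell, 9 rose and 3 did not pass the test (limma, adjusted p under 0.05), where 51.1% of all tested genes changed in either direction. That is 74.5% lower and 19.1% higher, against 27.4% lower and 23.7% higher among all 15908 tested genes. Among the 37 hepatocyte-made members, 34 fell and 0 rose, with a median log2 difference of -1.15. The 3 that did not pass were C3, F5 and C4bp. With quantile normalization, which forces all arrays to 1 distribution, 26 fell and the median was -0.76. All 5 tested macrophage-made members rose, with a median of 1.25, and the median over all tested genes was -0.11. Of the 5 members mainly made by other cells, F3, Plat, Plau and Plaur rose and F8 fell. F13a1 and Plau entered the test through the CFD arrays alone, where they were high, so the filter favoured a rise for them. Of the 45 members well above background on all 6 arrays, 7 rose and 35 fell. All 3 CFD arrays lay below all 3 control arrays for 36 of the 47 members and above them for 9. Over all tested genes, 34.6% lay below and 28.3% above in that way. In bulk RNA, fewer cells of a type and less RNA per cell cannot be told apart.

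**Figure D1:**
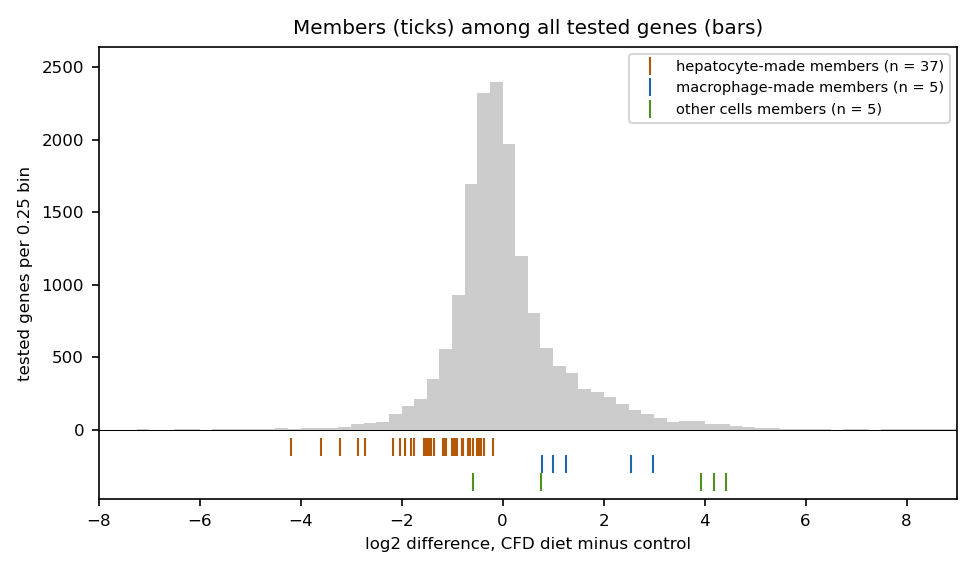
The histogram counts tested genes (y axis) by their log2 difference, CFD diet minus control (x axis, bins of 0.25), with the members as ticks beneath it, coloured by the cells that mainly make them. The 37 hepatocyte-made members lie between -4.19 and -0.19, while the 5 tested macrophage-made members lie between 0.79 and 2.98.

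The size of the fall was not the same on the 3 CFD arrays. The summed signal of the 37 hepatocyte-made members, relative to the 75th percentile, read 6270, 7431 and 6828 on control arrays. It read 3253, 5011 and 3236 on CFD arrays. CFD array 2 was the nearest to the controls, and the groups did not overlap. The 75th percentile itself, as an intensity, was 438.8, 365 and 402.2 on control arrays. On CFD arrays it was 617.8, 404.1 and 670.2, again with array 2 nearest to the controls. The part of this scaling value in the gap between CFD arrays was not tested. Within slides 1, 2 and 3 the median differences of the 37 members were -1.34, -0.72 and -1.35. Slide 2 had the smallest difference for 34 of the 37, and for 8403 of all 15908 tested genes. The summed signal of the 10 hepatocyte markers was 2555, 3197 and 3073 on control arrays and 1631, 2729 and 1740 on CFD arrays, so that CFD array 2 lay above control array 1. Of these markers 5 fell, 0 rose and 5 did not pass, with a median of -0.59. The part that hepatocyte number or general hepatocyte output has in the members' fall was not tested.

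**Figure D2:**
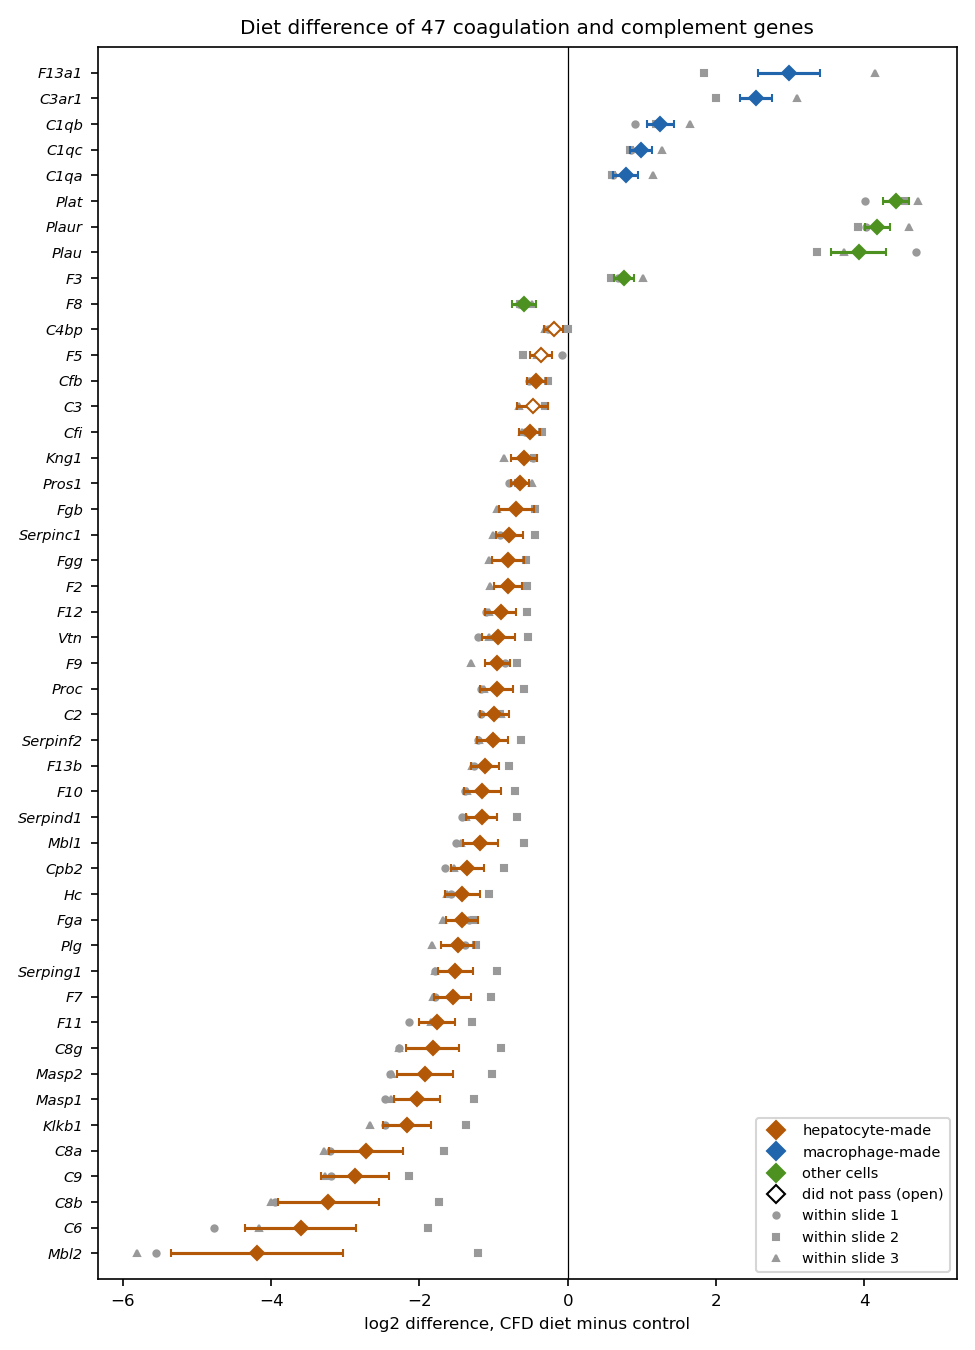
Each diamond is the log2 difference, CFD diet minus control, of 1 of the 47 tested genes with its standard error (x axis), grouped by the cells that mainly make the product, and small grey symbols give the difference within each slide. Open diamonds mark the 3 genes that did not pass the test, and the slide 2 symbols lie nearest 0 for 34 of the 37 hepatocyte-made genes. Among all 15908 tested genes, not drawn here, slide 2 had the smallest difference for 8403.

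The 250 bases before the start of each gene were searched on both strands for 5 short motifs of factors known from hepatocytes or from myeloid and activated cells. RefSeq promoter sequences (GRCm38.p6) were matched for 37 members, of which 27 fell, 6 rose and 4 were not called or not tested. The letters GTTAAT, part of the site of the hepatocyte factor HNF1, were found in 7 of the 27 promoters of genes that fell (25.9%), in 0 of the 6 that rose and in 6.52% of all 27018 promoters. An HNF4-type motif, CAAAGNNCA, was found in 3 of 27 (11.1%), 0 of 6 and 5.47% of all. A C/EBP-type motif, TTGCNNAA, was found in 6 of 27 (22.2%), 1 of 6 (16.7%) and 9.56% of all. An ETS-type motif, AGGAAGT, was found in 1 of 27 (3.7%), 2 of 6 (33.3%) and 7.81% of all. An AP-1-type motif, TGANTCA, was found in 3 of the 6 that rose (50%), 2 of 27 that fell (7.41%) and 6.87% of all. Each motif was counted on its own, also where matches overlap, and a match is a description of these letters, with no binding measured.

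The promoters of 4 genes that fell are shown first, 5′ to 3′ on the gene's strand. Each ends at the base before the gene's start, with any match to the 5 motifs in capitals. All 4 hold a match, while the promoters of other genes that fell, such as Mbl2 and C6, hold none of the 5 motifs. Fga (chr3:83025903-83026152, plus strand) encodes the fibrinogen alpha chain and holds C/EBP-type, HNF4-type and HNF1-type letters. F7 (chr8:13025784-13026033, plus strand), coagulation factor VII, holds an HNF4-type match. Hc (chr2:35061413-35061662, minus strand), the mouse gene for C5, and C8a (chr4:104876399-104876648, minus strand), the C8 alpha chain, each hold an HNF1-type match.
Fga: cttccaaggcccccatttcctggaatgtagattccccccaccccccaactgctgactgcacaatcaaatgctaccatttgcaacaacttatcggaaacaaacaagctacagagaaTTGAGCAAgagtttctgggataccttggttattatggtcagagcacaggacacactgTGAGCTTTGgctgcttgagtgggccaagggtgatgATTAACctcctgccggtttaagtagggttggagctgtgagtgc
F7: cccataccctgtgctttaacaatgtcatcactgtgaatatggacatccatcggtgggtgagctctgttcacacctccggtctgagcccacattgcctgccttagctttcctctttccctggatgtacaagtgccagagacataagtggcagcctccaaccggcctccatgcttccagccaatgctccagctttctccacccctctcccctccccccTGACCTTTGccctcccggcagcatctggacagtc
Hc: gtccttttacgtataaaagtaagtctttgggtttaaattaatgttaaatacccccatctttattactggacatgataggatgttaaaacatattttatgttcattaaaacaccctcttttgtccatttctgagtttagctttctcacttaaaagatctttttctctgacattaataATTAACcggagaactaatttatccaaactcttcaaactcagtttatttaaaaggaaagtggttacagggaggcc
C8a: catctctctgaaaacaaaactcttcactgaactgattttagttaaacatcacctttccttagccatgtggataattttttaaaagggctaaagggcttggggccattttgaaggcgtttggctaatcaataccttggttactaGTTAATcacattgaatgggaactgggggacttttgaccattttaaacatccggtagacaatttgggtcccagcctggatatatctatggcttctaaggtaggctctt

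The promoters of 4 genes that rose follow in the same form. All 4 hold a match, while the promoter of F13a1, which also rose, holds none of the motifs. F3 (chr3:121723287-121723536, plus strand), tissue factor, holds a pair of AP-1-type matches. Plaur (chr7:24462233-24462482, plus strand), the urokinase receptor, holds an AP-1-type and a C/EBP-type match, and C3ar1 (chr6:122856158-122856407, minus strand), the C3a receptor, an AP-1-type match. C1qb (chr4:136886201-136886450, minus strand), a C1q chain, holds an ETS-type match on the opposite strand.
F3: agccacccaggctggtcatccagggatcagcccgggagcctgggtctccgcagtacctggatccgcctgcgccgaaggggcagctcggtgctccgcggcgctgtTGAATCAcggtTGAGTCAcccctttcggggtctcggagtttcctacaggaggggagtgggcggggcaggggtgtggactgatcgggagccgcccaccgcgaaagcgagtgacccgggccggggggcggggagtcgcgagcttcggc
Plaur: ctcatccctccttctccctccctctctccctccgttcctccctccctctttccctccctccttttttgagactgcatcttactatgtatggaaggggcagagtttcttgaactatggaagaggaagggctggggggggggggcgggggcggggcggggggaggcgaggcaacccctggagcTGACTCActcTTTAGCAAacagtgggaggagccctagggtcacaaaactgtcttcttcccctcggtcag
C3ar1: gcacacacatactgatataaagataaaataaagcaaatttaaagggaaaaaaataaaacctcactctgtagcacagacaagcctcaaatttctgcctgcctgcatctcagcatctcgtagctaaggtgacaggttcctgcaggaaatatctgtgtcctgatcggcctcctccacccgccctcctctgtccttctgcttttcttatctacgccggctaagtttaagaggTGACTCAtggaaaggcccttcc
C1qb: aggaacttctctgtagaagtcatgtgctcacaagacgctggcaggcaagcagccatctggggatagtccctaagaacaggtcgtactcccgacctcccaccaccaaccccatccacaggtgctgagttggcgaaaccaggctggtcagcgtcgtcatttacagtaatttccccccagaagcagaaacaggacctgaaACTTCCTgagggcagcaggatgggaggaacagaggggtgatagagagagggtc

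All 6 genes of the contact and intrinsic route fell, with a median of -0.93. Klkb1, plasma prekallikrein, had levels of 4.30, 4.21 and 4.22 on control arrays against 1.83, 2.83 and 1.56 on CFD arrays. The groups were far apart, with CFD array 2 the highest of its group. The difference was -2.17 ± 0.32 (SE, n = 3 per group), a 4.50-fold fall with limma adjusted p = 0.00229. F11, the protease that activates factor IX, fell 3.39-fold (difference -1.76 ± 0.24, limma adjusted p = 0.00189). F12, which starts the contact route on charged surfaces, fell 1.87-fold, and Kng1, the kininogen that carries prekallikrein, fell by 0.59 ± 0.18 on the log2 scale (limma adjusted p = 0.0289). F8, the cofactor of factor IX made by endothelial cells, fell by 0.59 ± 0.16 (limma adjusted p = 0.0205). The Kng1 call did not hold without control array 2 or 3 or CFD array 1 or 3 (adjusted p 0.0711 to 0.0883), nor with quantile normalization, where its difference was 0.01. The F8 call did not hold without control array 1 (adjusted p = 0.0629) or CFD array 3 (0.0667).

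The vitamin K-dependent proteins, whose glutamates are carboxylated before secretion, all fell (6 of 6, median -0.95). F9, factor IX, had levels of 3.09, 3.09 and 3.16 on control arrays and 2.24, 2.41 and 1.86 on CFD arrays, a difference of -0.95 ± 0.16 (limma adjusted p = 0.00408). F7, which starts the extrinsic route when bound to tissue factor, read 4.18, 4.36 and 4.43 against 2.38, 3.32 and 2.61, and fell 2.93-fold (-1.55 ± 0.25, limma adjusted p = 0.00309). In each of these 2 genes every CFD array lay below every control array. F10, the protease that cuts prothrombin, read 7.37, 7.62 and 7.54 against 5.98, 6.91 and 6.18, and fell 2.22-fold (-1.15 ± 0.25, limma adjusted p = 0.00874). F2, prothrombin itself, read 8.70, 8.94 and 8.82 against 7.88, 8.38 and 7.78, and fell 1.75-fold (-0.81 ± 0.19, limma adjusted p = 0.0113). Groups were separate for both, but with quantile normalization the F2 difference was -0.07 and did not pass (adjusted p = 0.577).

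Proc, the precursor of activated protein C, read 7.90, 8.14 and 8.05 on control arrays and 6.74, 7.55 and 6.92 on CFD arrays. It fell 1.95-fold (-0.96 ± 0.22, limma adjusted p = 0.0118). Pros1, protein S, is the cofactor of protein C, and its levels were 2.85, 2.87 and 2.62 against 2.06, 2.21 and 2.14. It fell 1.56-fold (-0.64 ± 0.12, limma adjusted p = 0.00603), and unlike most members its slide 2 difference (-0.67) was not the smallest. The other coagulation inhibitors fell as well, so that all 4 members of that role were lower. Serpind1, heparin cofactor II, had nearly equal control levels of 7.23, 7.22 and 7.22 against 5.80, 6.54 and 5.84 on CFD arrays, a 2.23-fold fall (-1.16 ± 0.21, limma adjusted p = 0.00493). Serpinc1, antithrombin, fell 1.72-fold (-0.79 ± 0.18, limma adjusted p = 0.0112), but its difference of -0.24 with quantile normalization did not pass (adjusted p = 0.0707). Procoagulant and anticoagulant members fell side by side.

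The enzymes that carboxylate vitamin K-dependent proteins and recycle the vitamin are not members but were on the list of other coagulation genes. Ggcx, the carboxylase, fell by 1.08 on the log2 scale (SE 0.14, limma adjusted p = 0.00143). Vkorc1, the reductase, fell by 1.00 (SE 0.24, limma adjusted p = 0.0134).

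The fibrinogen chains all fell (3 of 3, median -0.81), by unequal amounts. Fga read 6.94, 7.27 and 6.95 on control arrays and 5.61, 6.01 and 5.26 on CFD arrays, a 2.69-fold fall (-1.43 ± 0.21, limma adjusted p = 0.00247). Fgg, the gamma chain, read 9.04, 9.31 and 9.01 against 8.24, 8.75 and 7.95, and fell 1.75-fold (-0.81 ± 0.22, limma adjusted p = 0.0215). Fgb, the beta chain, read 9.46, 9.95 and 9.73 against 8.79, 9.50 and 8.77, and fell 1.62-fold (-0.69 ± 0.24, limma adjusted p = 0.048). Fgb overlapped between groups because CFD array 2 lay above control array 1, while Fga and Fgg did not overlap. Without any 1 array other than CFD array 2, the Fgb call did not hold (adjusted p 0.053 to 0.144). Fgg lost its call without control array 2 or CFD array 1 or 3 (adjusted p 0.0611 to 0.0676). With quantile normalization Fgg (-0.23) and Fgb (-0.19) did not pass, and the fall of Fga was the only 1 of the 3 to keep its call.

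The 3 fibrinogen genes are next to each other on chromosome 3, which makes their unequal falls visible as a shift in the ratio between neighbours. The log2 ratio of the Fgg probe to the Fga probe was 2.06 ± 0.03 (SD, n = 3) in controls and 2.69 ± 0.05 in CFD livers, a change of 0.62. The Fga to Fgb ratio changed by -0.73 and its groups were separate as well. Similar shifts were seen for F7 against its neighbour F10, whose log2 ratio went from -3.19 ± 0.08 to -3.59 ± 0.01, and for Cfb against C2, which changed by 0.57. Dividing each array by a single factor, such as its 75th percentile or median, leaves such a ratio as it is, but quantile normalization does not. For 9 such ratios, 8 of them of neighbouring members, the exact two-sided permutation p was 0.1 for all but C8b against C8a (0.2), and 0.1 is the smallest p that 3 against 3 arrays can give. Adjusted over the 9, these were 0.113 and 0.2, so none passed.

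Of the other members of the common pathway, F13a1 rose, F13b fell and F5 did not pass. F13a1, the catalytic subunit of the fibrin-crosslinking factor XIII, is made by macrophages and megakaryocytes, and F13b, the carrier subunit, by hepatocytes. F13a1 had levels of -5.02, -4.97 and -5.70 on control arrays against -2.06, -3.13 and -1.55 on CFD arrays. All CFD arrays were above all controls, but only 1 control array was well above background. The difference was 2.98 ± 0.42 (limma adjusted p = 0.00191), and it was 0.94 with a normexp background correction, whose offset compresses dim probes. F13b fell 2.17-fold (-1.12 ± 0.19, limma adjusted p = 0.00392). F5, factor V, had a difference of -0.36 ± 0.15 that did not pass (limma adjusted p = 0.0812), though it did without CFD array 1 (-0.49, adjusted p = 0.0281).

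Fibrinolysis held the largest rises of all members. Plat, tissue plasminogen activator, had levels of -2.92, -3.44 and -3.27 on control arrays against 1.09, 1.11 and 1.46 on CFD arrays. The difference of 4.43 ± 0.18, a 21.5-fold rise (limma adjusted p = 5.53e-05), was many times the spread within either group. Plaur, the receptor that holds urokinase at the cell surface, rose 18.1-fold (4.18 ± 0.17, limma adjusted p = 5.53e-05). Another tested probe of each gene also rose, by 5.57 ± 0.49 for Plat and 4.01 ± 0.22 for Plaur. That Plat probe was well above background on only 1 control array, so the filter favoured its rise. Plau, urokinase, was well above background on 0 control arrays and on all 3 CFD arrays with 1 probe, while its other probe stayed near background on all 6 arrays. By the former probe it was therefore at least 3.39-fold higher, measured against the lowest signals well above background on the control arrays (limma adjusted p = 0.000455). With the normexp correction the differences were 3.34 for Plat, 2.89 for Plaur and 0.68 for Plau.

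The hepatocyte-made members of fibrinolysis went the other way, 4 of 4 lower. Plg, plasminogen, the substrate of both activators, read 7.62, 7.98 and 7.79 on control arrays and 6.24, 6.75 and 5.96 on CFD arrays. No CFD value reached a control value, and the fall was 2.80-fold (-1.48 ± 0.22, limma adjusted p = 0.00238). Cpb2, a carboxypeptidase that protects fibrin from plasmin, fell 2.55-fold (-1.35 ± 0.22). Serpinf2, the alpha-2-antiplasmin that blocks plasmin, fell 2.02-fold (-1.01 ± 0.21), and Vtn, vitronectin, an adhesive plasma protein, fell 1.91-fold (-0.93 ± 0.22). The limma adjusted p of these 3 lay between 0.00342 and 0.0123. With quantile normalization Vtn did not pass (-0.32, adjusted p = 0.0515).

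F3, tissue factor, is the cell-bound starter of the extrinsic route. Its levels were -2.14, -1.96 and -2.35 on control arrays and -1.45, -1.38 and -1.34 on CFD arrays, all well above background. The rise of 0.76 ± 0.14, or 1.69-fold (limma adjusted p = 0.00477), was smaller than those of the fibrinolytic genes, and the groups did not overlap. F3 rose while F7, its plasma partner, fell.

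**Figure D3:**
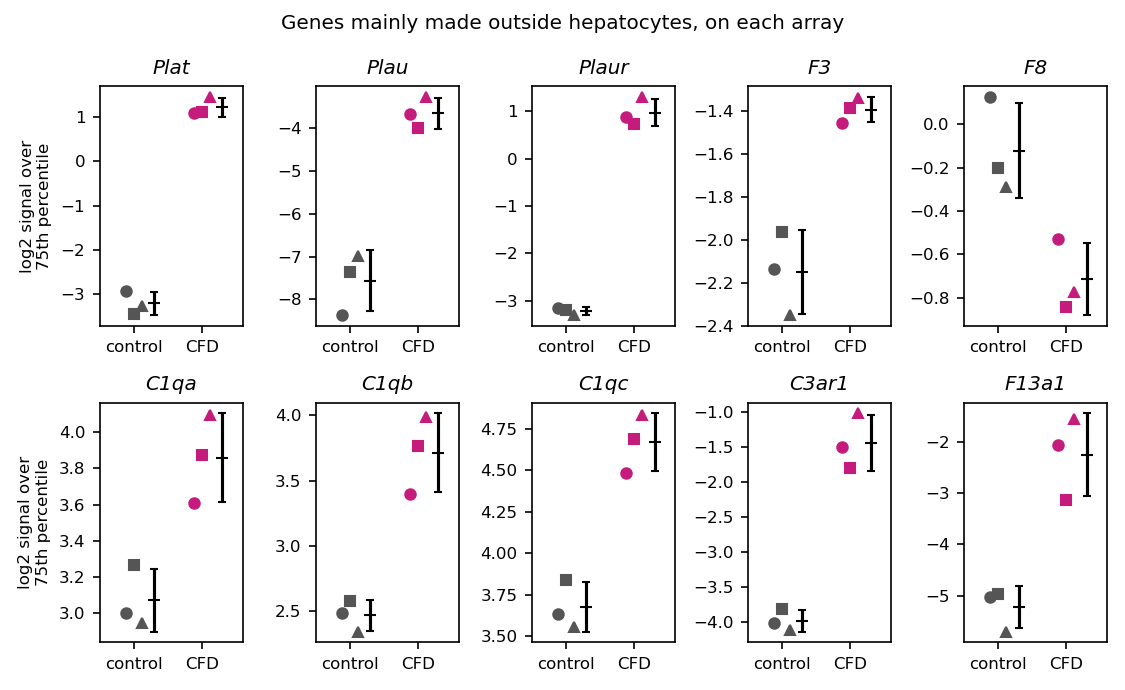
Log2 levels (y axis, relative to the 75th percentile of each array) of 10 genes mainly made outside hepatocytes are shown for the 3 control and 3 CFD arrays, with a different symbol for each replicate number and bars for the mean ± SD. The CFD points lie above all control points in every panel except that of F8, where they lie below.

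In the classical route the 3 chains of the recognition molecule C1q rose, C2 and Serping1 fell and C4bp did not pass. C1qb read 2.48, 2.58 and 2.34 on control arrays and 3.39, 3.76 and 3.99 on CFD arrays, a 2.38-fold rise (1.25 ± 0.18, limma adjusted p = 0.00204). C1qc read 3.63, 3.84 and 3.55 against 4.48, 4.69 and 4.83, a 1.99-fold rise (0.99 ± 0.15, limma adjusted p = 0.0023). C1qa read 3.00, 3.27 and 2.95 against 3.61, 3.87 and 4.10, a 1.72-fold rise (0.79 ± 0.17, limma adjusted p = 0.00879). The 3 chains, which assemble together into C1q and are encoded side by side on chromosome 4, each had separate groups, and CFD array 3 was the highest for each. Within slides 1, 2 and 3 their median difference was 0.85, 0.85 and 1.28.

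Serping1, the C1 inhibitor that also restrains kallikrein, was the classical member with the largest fall. It had levels of 6.21, 6.25 and 6.30 on control arrays and 4.42, 5.29 and 4.50 on CFD arrays. The separate groups gave a 2.86-fold fall (-1.51 ± 0.24, limma adjusted p = 0.00306). C2, the protease of the classical C3 convertase, fell 1.99-fold (-0.99 ± 0.20, limma adjusted p = 0.00661). C4bp, which dissociates that convertase, had a difference of -0.19 ± 0.13 and did not pass (limma adjusted p = 0.244). Its levels were 7.77, 7.64 and 7.66 against 7.51, 7.64 and 7.36, a smaller distance than for any other hepatocyte-made member.

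All 4 lectin-route genes fell, with a median of -1.98. Mbl2, mannose-binding lectin C, had the largest fall of any member and the largest spread. Its levels were 7.97, 8.05 and 8.13 on control arrays against 2.43, 6.85 and 2.31 on CFD arrays. CFD array 2 was close to the controls and the other 2 far below, so that the slides gave -5.55, -1.21 and -5.81. The difference of -4.19 ± 1.16, an 18.2-fold fall, passed narrowly (limma adjusted p = 0.0222). It did not pass without any 1 array other than CFD array 2 (adjusted p 0.0533 to 0.0713), and without CFD array 2 it was -5.68. Mbl1, mannose-binding lectin A, also had CFD array 2 closest to the controls, on a smaller scale, with 5.50, 5.43 and 5.48 against 4.0, 4.84 and 4.04. It fell 2.26-fold (-1.18 ± 0.24, limma adjusted p = 0.00677).

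The lectin-associated proteases fell by similar amounts. Masp2, which cleaves C4 and C2, fell 3.81-fold (-1.93 ± 0.38, limma adjusted p = 0.00623). Masp1, which activates MASP-2, read 3.96, 4.0 and 4.11 on control arrays and 1.5, 2.74 and 1.73 on CFD arrays, and fell 4.09-fold (-2.03 ± 0.31, limma adjusted p = 0.00276). Masp1 was the only member whose tested probes were called in opposite directions. This gene makes several proteins by alternative splicing. The brightest probe, at 23108101 to 23108160 on chromosome 16 of build mm7, and another designed on the same transcript (-1.66 ± 0.24, adjusted p = 0.00233 over all probes) were lower. A probe at 23127084 to 23127143, designed on a different cDNA, read 2.73, 2.50 and 2.50 on control arrays and 3.16, 2.93 and 3.03 on CFD arrays. That is a rise of 0.46 ± 0.13 (limma, adjusted p = 0.0252 over all probes), with no overlap between groups. The log2 ratio of this probe to the brightest went from -1.45 ± 0.19 (SD, n = 3) to 1.05 ± 0.77, with an exact permutation p of 0.1, the smallest possible. Which transcripts each probe detects in these livers was not tested.

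Of the 3 alternative-route members 2 fell, and the differences of all 3 lay between -0.52 and -0.42. Cfi, the protease that inactivates C3b, read 7.58, 7.68 and 7.58 on control arrays and 7.0, 7.33 and 6.96 on CFD arrays, a fall of 1.43-fold (-0.52 ± 0.14, limma adjusted p = 0.0204). Cfb, the protease of the alternative convertase, fell 1.34-fold (-0.42 ± 0.12, limma adjusted p = 0.0282). C3, the component on which all routes converge, read 9.46, 9.91 and 9.74 against 9.0, 9.61 and 9.09. Its groups overlapped and its difference of -0.47 ± 0.21 did not pass (limma adjusted p = 0.098), while another C3 probe, at another place in the gene, was lower (-0.66 ± 0.17, adjusted p = 0.0159 over all probes). With the slide as a block the C3 adjusted p was 0.0482, and the Cfb adjusted p was 0.0564. Without CFD array 2 C3 passed as well (adjusted p = 0.0189). Without any 1 of the other 5 arrays neither Cfi (0.0532 to 0.071) nor Cfb (0.0691 to 0.0971) passed, and with quantile normalization the differences were 0.22 for Cfb and -0.0045 for Cfi.

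All 6 terminal genes fell, with a median of -2.79, below the median of the 37 hepatocyte-made members (-1.15) that include them. C6, the first protein to join C5b in the pore, had levels of 4.37, 4.62 and 4.33 on control arrays and -0.40, 2.74 and 0.17 on CFD arrays. CFD array 2 again lay between the controls and the other CFD arrays, and the slides gave -4.77, -1.89 and -4.16. The fall was 12.2-fold (-3.60 ± 0.75, limma adjusted p = 0.00798). C8b fell 9.39-fold (-3.23 ± 0.68), C9, which polymerises to form the ring of the pore, 7.31-fold (-2.87 ± 0.46) and C8a 6.59-fold (-2.72 ± 0.50). Their limma adjusted p values lay between 0.0031 and 0.00828. Without CFD array 2 the differences were -4.55 for C6, -4.09 for C8b and -3.34 for C8a, and without CFD array 1 that of C6 was -2.99. C6, C8a, C8b and C9 are related pore-forming proteins and had a median of -3.05.

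The 2 terminal members of other protein families fell less. C8g, the lipocalin chain of C8, fell 3.53-fold (-1.82 ± 0.36, limma adjusted p = 0.00621), and Hc, the gene for C5, fell 2.68-fold (-1.42 ± 0.24, limma adjusted p = 0.00352). Hc is related to C3 and yields both the C5a fragment and the base of the pore. Within slides 1, 2 and 3 the median terminal difference was -3.20, -1.71 and -3.28. Slide 2 had the smallest difference for all 6 genes, and for 8403 of all 15908 tested genes.

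**Figure D4:**
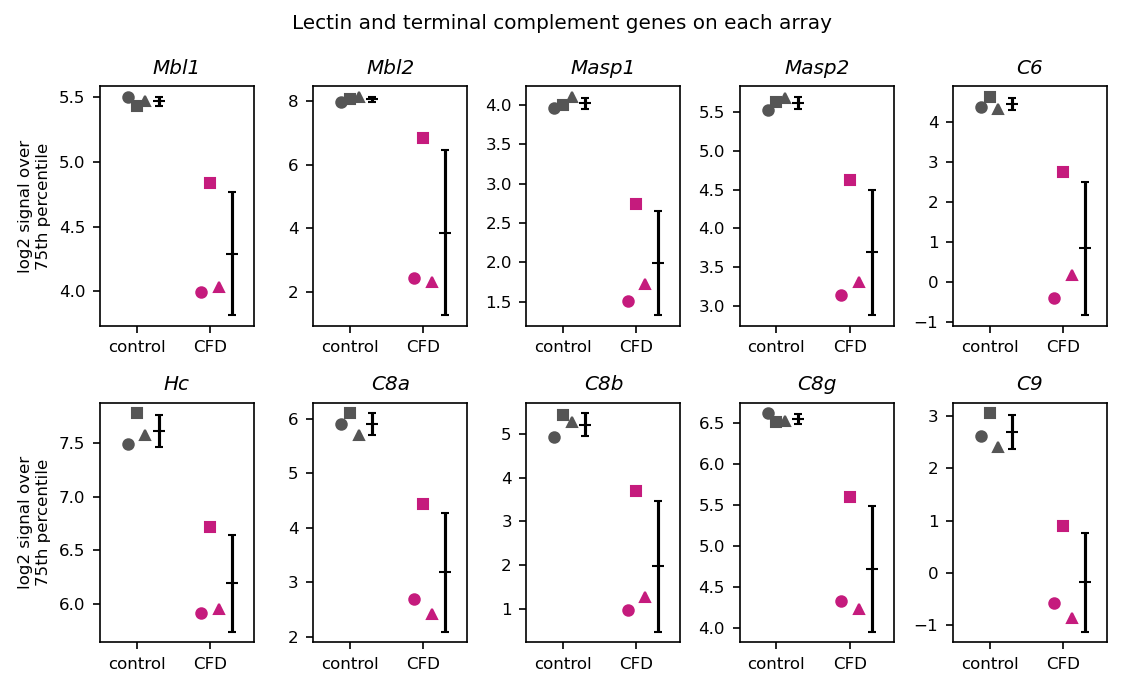
Log2 levels (y axis, relative to the 75th percentile of each array) of the 4 lectin-route and 6 terminal complement genes are shown for the 3 control and 3 CFD arrays, with a different symbol for each replicate number and bars for the mean ± SD. All CFD points lie below all control points, and CFD array 2 is the highest CFD point in each panel.

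Of the members C3ar1 and C5ar1, receptors for the C3a and C5a fragments, only C3ar1 could be tested. Its levels were -4.02, -3.81 and -4.11 on control arrays and -1.49, -1.80 and -1.01 on CFD arrays, all well above background. The rise was 2.54 ± 0.22, or 5.83-fold (limma adjusted p = 0.000309), and 1.16 with the normexp correction. Another probe rose too (3.36 ± 0.26), but it was well above background on only 1 control array, so the filter favoured its rise. C5ar1 read -8.46, -7.19 and -6.83 on control arrays and -5.63, -5.51 and -5.90 on CFD arrays, mostly below background, and no fold is given. The ligand genes C3 and Hc did not rise alongside it.

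Other genes of coagulation, 33 listed and 26 tested, were evenly split, with 10 higher, 10 lower and 6 not passing (median 0.12). That is 38.5% each way, against 23.7% higher and 27.4% lower among all tested genes. Among the largest rises were those of Anxa2, a cell-surface cofactor of plasmin generation (4.13 ± 0.19), Thbs1, thrombospondin-1, and Serpina5, the protein C inhibitor. Thbs1 was at least 5.53-fold and Serpina5 at least 4.65-fold higher, since both were well above background on 0 control arrays, and the filter favoured their rise. With probes well above background on all 6 arrays, 7 of 23 genes were higher and 10 lower. With the normexp correction Serpina5 did not pass (0.63, limma adjusted p = 0.0614), and the difference was 0.88 for Thbs1. Thbd, thrombomodulin, and Procr, the endothelial protein C receptor, which activate protein C at the cell surface, rose by 1.71 ± 0.17 and 1.75 ± 0.25 while Proc itself fell.

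The 4 largest falls among the other coagulation genes were those of Mug1, a plasma protease inhibitor of the alpha-macroglobulin family (-1.84 ± 0.45), Proz, protein Z (-1.83 ± 0.34), Hrg, histidine-rich glycoprotein (-1.62 ± 0.25), and Pzp, another alpha-macroglobulin (-1.29 ± 0.18). Each had separate groups and a limma adjusted p of at most 0.0144. Without CFD array 3 Mug1 did not pass (adjusted p = 0.0518).

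Of the other complement genes, 33 listed and 26 tested, 15 were lower, 4 higher and 7 did not pass (median -0.62). That is 57.7% lower and 15.4% higher, against 27.4% and 23.7% among all tested genes. The 4 that rose are carried by leukocytes or endothelium. They were Itgax (4.77 ± 0.37), Itgam (3.87 ± 0.45, well above background on 1 control array) and Itgb2 (2.35 ± 0.26), which form the complement receptors of myeloid cells, and Cd93 (2.04 ± 0.21). With the normexp correction Itgax was 3.74 and Itgam 1.05. The limma adjusted p of these 4 was at most 0.000977.

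The 4 largest complement falls were those of Cfd, Susd4, Cd59b and C4a. Cfd, factor D or adipsin, which fat cells also make, read 3.09, 0.85 and 4.01 on control arrays and -6.88, 1.45 and -5.42 on CFD arrays. The groups overlapped, slide 2 gave a rise of 0.60, and the difference of -6.27 ± 2.11 barely passed (limma adjusted p = 0.0441). A model with a slide term gave an adjusted p of 0.075, above the threshold, and it did not pass either without any 1 array other than CFD array 2 (0.0572 to 0.131). Susd4, a membrane regulator of complement, fell by 4.81 ± 1.1, with differences of -6.16, -2.37 and -5.88 on slides 1 to 3, and Cd59b, which blocks the terminal pore on cells, by 2.57 ± 0.54. Without CFD array 2 the differences were -8.80 for Cfd, -6.21 for Susd4 and -3.24 for Cd59b. With the normexp correction they were -4.02 for Cfd, -3.91 for Susd4 and -1.83 for Cd59b. C4a fell by 2.00 ± 0.36 (0.70 with the normexp correction), but it is nearly identical to C4b, which also fell (-1.69 ± 0.23), so the 2 cannot be told apart with certainty.

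Markers of several other liver cell types also differed between the diets. Among all tested genes, 23.7% were higher and 27.4% lower. Of 10 macrophage markers 8 rose and 2, Clec4f and Timd4, fell. Their summed signal was 160 to 227 on control arrays and 381 to 527 on CFD arrays. The summed signal of the macrophage-made members was 24.6 to 30.0 and 45.6 to 62.3, so both lists were higher without overlap. All 5 tested monocyte and neutrophil markers rose, with a summed signal of 1.41 to 2.40 in controls and 19.0 to 25.5 in CFD livers. Of the 5, Cxcr2 was well above background on 0 control arrays and Ccr2 on 2, so the filter favoured a rise for both. The part of these cells in the rise of C1q, C3ar1 and F13a1 was not tested.

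The members made by other cells had summed signals of 1.23 to 1.57 on control arrays and 4.83 to 6.30 on CFD arrays. All 6 cholangiocyte markers rose (0.54 to 0.93 against 4.29 to 6.27), but Cldn4, for example, was well above background on 0 control arrays, so the filter favoured its rise. All 8 stellate cell and fibroblast markers rose too (72.9 to 81.8 against 178 to 202). Of 8 endothelial markers 5 fell and 1 rose (45.0 to 49.0 against 26.2 to 34.4), in the same direction as F8 and opposite to Plat, Plau, Plaur and F3. Of 5 tested platelet markers 1 rose and 2 fell (0.83 to 1.14 against 3.95 to 4.63), and of 4 tested lymphocyte markers 1 fell (0.81 to 1.0 against 0.56 to 0.85). With the slide as a block these falls numbered 1 and 2. Without the block the lymphocyte share, 25%, was near the 27.4% lower among all tested genes, and its summed signals overlapped. The part of any of these cells in the members' changes was not tested.

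**Figure D5:**
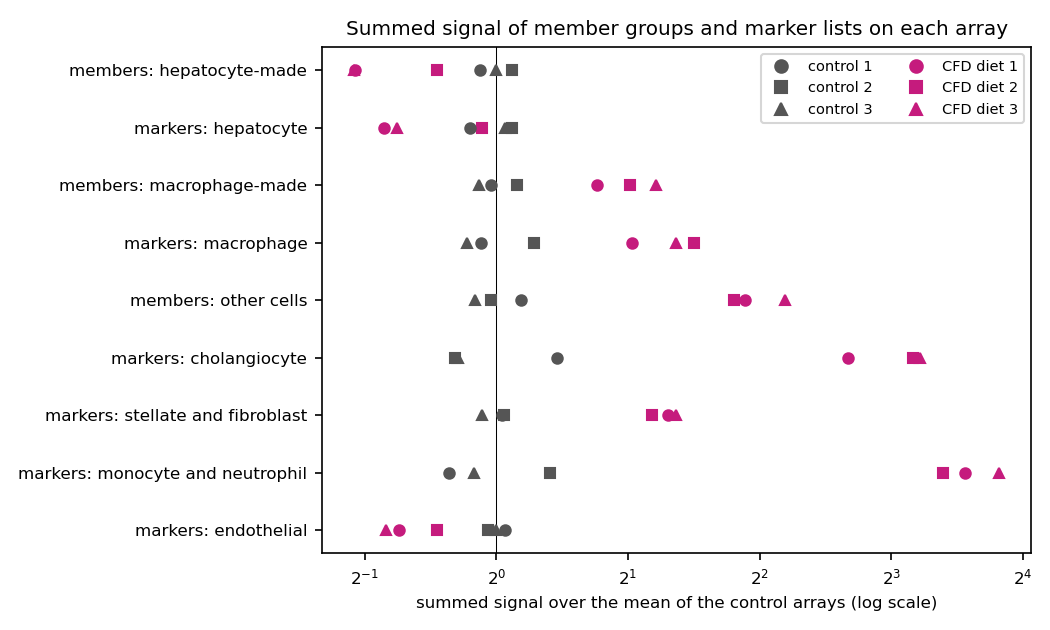
Each point is the summed signal of a group of members or of a marker list on 1 array, divided by the mean of the control arrays (x axis, log scale with base 2). Hepatocyte-made members and hepatocyte markers lie lower on CFD arrays 1 and 3 than on CFD array 2, while macrophage, cholangiocyte and stellate lists lie above the control arrays on all 3 CFD arrays.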

How the data were processed

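Total liver RNA was labelled with Cy3 and hybridised to 6 single-colour Agilent whole-genome mouse arrays, 3 for each diet, grouped by the labels. The deposited scanner files hold an intensity for each spot, background-subtracted by Agilent Feature Extraction, version 10.5.1.1 per the file headers and 10.7 per the submitters' processing notes. Probe coordinates in the deposited files are on mouse build mm7, per the file headers. The log2 of each deposited intensity was taken here, minus the log2 of the 75th percentile over the 43379 non-control spots. Spots flagged as outliers were dropped, and the remaining spots of each probe averaged. A probe was tested if well above background on all 3 arrays of a group. That required a share of more than 0.5 of its spots by the software's flag, with outlier spots counted as not above. The brightest tested probe on average stood for its gene. Of 41174 probes, 22944 were named by accession and 6664 and 3108 by current or older symbol through RefSeq, and 8458 kept the file's name. The number of arrays limits the precision.

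Diets were compared with limma 3.58.1 (lmFit, eBayes; R 4.3.3), with Benjamini-Hochberg adjustment over all 15908 tested genes and a threshold of 0.05. Where a probe other than the gene's representative is given, adjustment ran over all 23481 tested probes. The procedure was tested on simulated data. Ratios of 2 probes were compared with exact two-sided permutation tests. A probe below background on a whole group gives "at least" a fold, from the lowest signal well above background. Per-array values are given for the largest called rise and fall of each role, the C1q and fibrinogen chains, the vitamin K-dependent factors and members whose probes disagree in direction. The 4 largest called rises and falls of the other coagulation and complement genes are also named, except 1 that is not reported here. C4bp, C5ar1, C3, Mbl1, F3, Ggcx, Vkorc1, Thbd, Procr and C4b were singled out after their values were seen where they stand outside that rule. The members and all lists, including the cell type markers, were chosen with earlier results of these data known. Alternatives were another scaling (median, quantile), normexp correction with an offset of 50, other filters on dim probes, the slide as a block, other eBayes settings, the mean of probes, the value table and leaving out arrays.

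Arrays of the same replicate number shared a slide, per the file headers, but their deviations from the group means correlated by 0.17, -0.07 and -0.01 over 15870 genes, so the data do not bear out a pairing. The deposited value table holds intensity on a linear scale, with column medians of 61.49 to 80.59. Each of its columns matched, at a rank correlation of 1, a scanner file of the same group with another replicate number. The scanner files' numbers are used here. No gene centring was seen. Which numbering is intended is unknown, and 0 columns of per-sample values were left unmapped. Promoters of 37 members were in the RefSeq table.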

Additional observations from a re-analysis of the deposited data

How the results depend on the processing

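Of the 47 tested members, the normexp correction, the filter on all 6 arrays (45 members tested) and the value table changed no call. With the replicate block 9 members were higher and 35 lower, Cfb being lost and C3 gained, and of the other coagulation and complement genes only Cfd changed its call. The macrophage markers called higher numbered 6. Quantile normalization gave a hepatocyte-made median of -0.761, changed the calls of 8 members, turned Kng1 (0.0139) and Cfb (0.217) and put 7 other complement genes higher. Scaling to the array median turned the median of the other coagulation genes (-0.0879) and added F5 and C3. The median over all genes was -0.107 in the main setting, -0.312 with median scaling and -0.0345 with quantile normalization, and the calls were 53.6%, 66.5% and 50% lower. Without a filter on dim probes 9 members lost their call and the members of other cells called lower numbered 0, F8 being lost. That number was 0 to 1 with each array left out in turn, and 0 without control array 1 and CFD array 2 together, which were chosen after seeing the data and also cost C1qa its call (adjusted p = 0.0521). Without CFD array 2 alone, C3 was gained and no call lost. Dim probes (Plau, F13a1, C5ar1) limit what can be said of their size.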
